A study of Xenopus laevis with 20 samples.

Results

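The 200 array rows described here are those whose signal differed most between replicate numbers, that is, between samples of the same treatment that carry the numbers 1 to 4 in their titles. They were chosen from 7745 rows brighter than the median row, out of 15491 rows in all. The choice used only the uninjected and the Dkk1 arrays: the signals of both arrays of a number were averaged on the log2(signal + 16) scale, and the rows with the largest standard deviation (SD) of the 4 averages were taken. Because the spread in those 8 arrays made the list, it is given as a description. The question asked of the other arrays was whether samples with the same number but another treatment showed the same pattern.

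The samples were animal caps of Xenopus laevis, the ectoderm over the blastocoel, cut at stage 9 and kept for 2.5 hours. All 5 groups of 4 arrays were cultured with cycloheximide, which blocks protein synthesis, and with dexamethasone, which activates proteins fused to the glucocorticoid receptor (GR). One group was uninjected. The others had received, at the one-cell stage, 10 ng of each RNA: Gata4-GR, Gata5-GR, Dkk1, or Gata4-GR together with Dkk1. Dkk1 blocks canonical Wnt signals outside the cell, whereas Gata4 and Gata5 bind DNA through zinc fingers and act in the forming gut and heart. No group received a control RNA. The labels give no strain, and they do not say what a replicate number stands for, such as a clutch of eggs, a day or a hybridization, so these cannot be told apart. Nothing in them says that replicates came from separate clutches, so p-values measure only the spread between these samples, which may be partly technical.

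In Xenopus, embryos of 1 female are siblings that begin life with the RNA she loaded into the egg, and at the blastula stage this maternal store is still a large part of the RNA in the cap. Zygotic transcription has only recently begun by then. Laboratory X. laevis is often outbred, and its genome keeps paired copies of many genes from an old duplication.

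A row's name is its place in the table, the first row being 1. The identifiers beside the signals were not used to name genes. Over 1017 pairs of listed L and S gene copies the correlation between the copies, across genes, was -0.01 for the median log2 signal, and the profiles over 20 arrays had a mean correlation of -0.01. Over 1293 pairs of rows listed under 1 symbol these values were 0.15 and 0.02. Rows listed as controls were left out by the same identifiers, so control probes may be among the members, which was not tested. When the 120 listed controls were let in, 10 of these 120 entered the list, beside 190 of the 15491 other rows, all of them members. Listed controls thus entered more often than other rows, and the reason was not tested. Of 90 neighbouring pairs of bright rows whose profiles over 12 arrays correlated above 0.9, 8 had identifiers of the same sequence cluster. No gene, function or marker of the cap could be read from the table in this way, and no sequence is shown. Median signals ran from 59.1 to 101 over the 20 arrays, and the order of the numbers by this median differed between treatments: number 4 was brightest in uninjected, Gata5-GR and Gata4-GR+Dkk1 arrays, and number 3 in Dkk1 and Gata4-GR arrays. One array stood apart: Gata4-GR replicate 1 did not follow the other arrays of number 1, as described below. Most of the tests and treatment comparisons that rest on it are given with and without it.

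Among the 200 rows the SD of the 4 averages ran from 0.625 to 2.19 in the arrays that chose them. The highest average was a median of 3.36-fold above the lowest. At the edge of the list, row 11698 (SD 0.626), row 9654 (0.626) and row 559 (0.625) were just inside, and row 3163 (0.623), row 2965 (0.623) and row 12361 (0.621) just outside, so nothing separated members from the next rows. Each member was put in a class by the number farthest from its mean in those arrays. The classes were 52 rows low at number 4, 49 high at number 4, 32 low at number 1, 29 low at number 3, 13 high at number 2, 10 high at number 1, 8 low at number 2 and 7 high at number 3.

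The pattern was then tested in the Gata5-GR and Gata4-GR+Dkk1 arrays, which had no part in the ranking. Both took part only in the quantile normalization and in the brightness bound, which used all 20 arrays. Each number had 1 array in each of these groups. The error in the tests of numbers thus rests on the disagreement between the 2 tested arrays of a number. For each row the deviations of the 4 numbers in the uninjected and Dkk1 arrays were the weights of a single contrast between the numbers. Its slope is 1 where the tested arrays repeat these deviations in full and 0 where they do not follow them. The weights carry error, and members were picked for large ones, so slopes lean below 1. A slope under 1 therefore does not by itself measure a part of the pattern that was lost. With limma, adjusting by Benjamini-Hochberg over all 15491 rows, 168 of 200 members had a slope above 0 at an adjusted p under 0.05, which is 84.0% of members. The share was 21.1% of all rows and 29.2% of rows brighter than the median row. The share of all rows fell to 9.60% when Gata4-GR+Dkk1 replicate 4 was left out, with 160 members called, and was at most 15.6% with any 1 tested array left out. One member, row 634, was called with a slope below 0, against 0.484% of all rows. In bulk samples such as these, fewer cells of a kind and less RNA per cell cannot be told apart. The median slope of the members was 0.86, with quartiles of 0.64 and 1.00, and it was 0.67 over all rows brighter than the median row. It was 0.88 in the Gata5-GR arrays by themselves and 0.84 in the Gata4-GR+Dkk1 arrays.

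The range between the highest and the lowest number in the tested arrays does not ask which number is high. Folds between numbers are on the normalized log2(signal + 16) scale, whereas single signals are printed as deposited. Where signals are low, the added 16 makes these folds smaller than ratios of the printed signals. It was at least 2-fold in 174 members (87.0%), against 3.09% of the other bright rows. Of these 174, 161 were also called with the pattern and 13 were not, against 2.78% of the other bright rows with both. Differences of at least 4-fold were seen in 43 members, of at least 8-fold in 11 and of at least 16-fold in 4, each also called with the pattern. Among the other 7545 bright rows 3 reached 4-fold. In the median member 97.0% of the variance within groups lay between numbers, against 82.2% in the other bright rows. A sizeable part of such a share falls to the numbers even without a pattern, since only 3 residual degrees of freedom were left. A test for any difference between numbers, blind to direction, called 164 members, against 11.1% of all rows and 14.1% of the bright rows. With a pseudocount of 1 in place of 16 it called 58 members, against 0.859% of all rows, and without Gata4-GR+Dkk1 replicate 4 it called 119, against 2.74%. Down the list, in steps of 50 members from the largest SD, the pattern was called in 46, 39, 40 and 43. The pattern test called 21.1% of all rows and 29.2% of the bright rows.

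**Figure D1:**
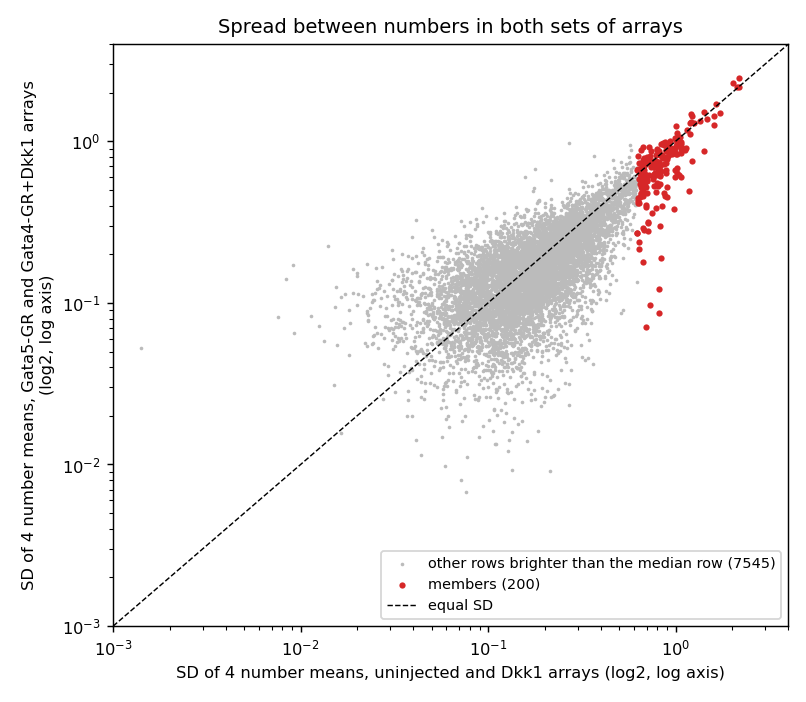
SD of the 4 number averages in the uninjected and Dkk1 arrays (horizontal, log2 units on a log axis) against the SD in the Gata5-GR and Gata4-GR+Dkk1 arrays (vertical), for the 200 members and the 7545 other rows brighter than the median row. Members lie to the right of 0.625 because of how they were chosen, and the median member had an SD of 0.703 in the arrays that did not choose it.

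The 4 members that differed at least 16-fold in the tested arrays, on the scale with 16 added, read under 100 at some numbers and above it at others. Row 7377, first in the list, was high at number 4, where it read 975 in uninjected, 529 in Dkk1, 726 in Gata4-GR, 728 in Gata5-GR and 816 in Gata4-GR+Dkk1 arrays. At number 2 the same groups read 309, 187, 222, 411 and 166. At number 1 they read 30.2, 12.1, 8.9, 14.4 and 10.2, and at number 3 they read 24, 17.1, 16.6, 3.6 and 11.7. All 5 arrays of number 4 lay above all arrays of number 2, and these above all of numbers 1 and 3, whatever had been injected. In the tested arrays the number averages of row 7377 spanned 31.6-fold on the scale with 16 added, with a slope of 1.12 (standard error, SE, 0.06, limma adjusted p = 0.000162).

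Row 13228 was the reverse kind, near 0 at number 2. It read 2.3, 4.6, 1.2, 3.7 and 1.8 there in uninjected, Dkk1, Gata4-GR, Gata5-GR and Gata4-GR+Dkk1 arrays. At number 1 it read 642 in uninjected, 446 in Dkk1, 331 in Gata5-GR and 517 in Gata4-GR+Dkk1 arrays, but 1.9 in Gata4-GR replicate 1. At number 3 it read 351, 244, 245, 207 and 131, and at number 4 it read 410, 227, 391, 428 and 447. Number 2 read under 5 in 5 of 5 arrays, and the only other array under 5 was Gata4-GR replicate 1. In the tested arrays the log2 difference of number 2 from the mean of the other numbers was -4.17 (SE 0.13, limma adjusted p = 0.000173).

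Row 6358 was lowest at number 4, where it read 13.2, 7.9, 10.1, 5.9 and 3.8 in the same order of groups. At number 1 it read 452, 249, 20.0, 378 and 331, at number 2 it read 399.5, 861.5, 906.5, 436 and 825, and at number 3 it read 342, 169.8, 299.7, 394 and 367. Again all arrays of that number were low, and the 1 other low array was Gata4-GR replicate 1. The log2 difference of number 4 from the mean of the others was -4.54 (SE 0.30, limma adjusted p = 0.00101).

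Row 7124 split the numbers evenly. At number 1 it read 1039.8, 775, 1093, 726 and 820.1, and at number 3 it read 736, 632, 773, 617 and 511, in the same order of groups. At number 2 it read 20.3, 73.3, 69.7, 24.4 and 41.9, and at number 4 it read 72.2, 35.3, 87.7, 48 and 51.3. Numbers 1 and 3 did not overlap with numbers 2 and 4 in any of the 20 arrays, and here Gata4-GR replicate 1 read with its own number. The tested averages spanned 17.1-fold, with a slope of 1.01 (SE 0.04, limma adjusted p = 6.95e-05).

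**Figure D2:**
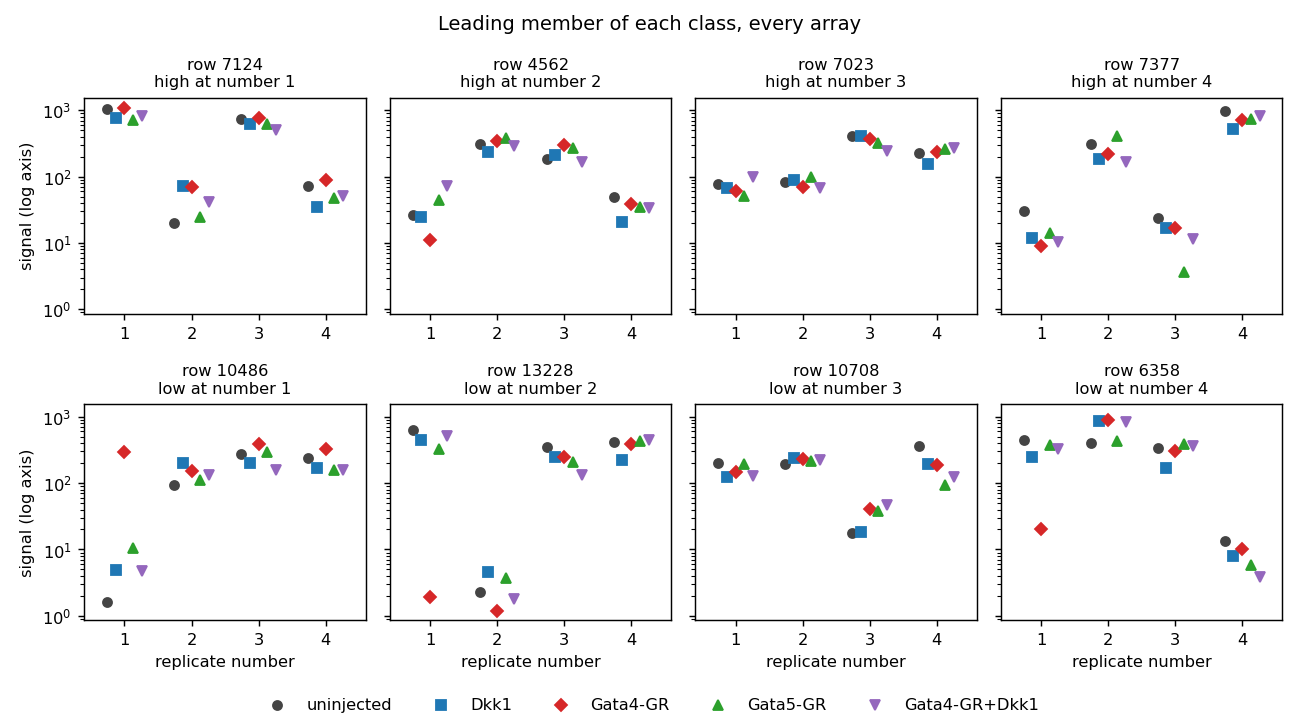
Signal (log axis) of the member with the largest spread in each of the 8 classes, in every array, by replicate number; colour and symbol give the treatment. Gata4-GR at number 1 leaves its number in rows 10486, 13228 and 6358. Numbers that are not the extreme can overlap, as numbers 1, 2 and 4 do in row 10708 and numbers 1 and 4 in row 4562. The extreme number also overlaps another in rows 4562, 7023 and 7124.

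The leading rows of the other classes showed the same at smaller size. Row 10486 was low at number 1, at 1.6, 4.9, 10.4 and 4.8 in uninjected, Dkk1, Gata5-GR and Gata4-GR+Dkk1 arrays, while Gata4-GR replicate 1 read 291. The other numbers of this row read 94.7 to 391 in all groups, so Gata4-GR replicate 1 lay among them. Its difference at number 1 in the tested arrays was a log2 of -2.93 (SE 0.19, limma adjusted p = 0.00187). Row 4562 was high at number 2 (239 to 379) and number 3 (168 to 304) and low at number 1 (11.2 to 71.6) and number 4 (20.7 to 49.1), with no overlap between the 2 high and the 2 low numbers. Row 7023 was high at number 3, at 242 to 416, and number 4 read 153 to 271, which overlaps it; numbers 1 and 2 stayed at 51.9 to 100.3. Row 10708 was low at number 3, at 17.9 to 46.7, against 93.3 to 368 at the other numbers. Its slope of 0.49 (SE 0.09, limma adjusted p = 0.0124), was the lowest of the 8 leading rows.

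The second row of each class followed its number in 7 of 8 cases. Row 1421 read 498 to 718 at number 2 and 46.1 to 164 in the other arrays except Gata4-GR replicate 1, which read 539. Row 7134 read 94.7 to 143.5 at number 1 in 4 groups, 473 in Gata4-GR replicate 1, and at least 546 in all arrays of other numbers. Row 13584 read 16.3 to 39.7 at number 2, 7.1 in Gata4-GR replicate 1, and at least 208 elsewhere. In these 3 rows Gata4-GR replicate 1 lay outside the range of the other arrays of number 1, in row 1421 within the range of number 2 and in row 13584 below it. Row 2852 was low at number 3, at 94.5 to 312, and Gata4-GR replicate 1 also read 303. Row 9263 read 21.1 to 41.7 at number 4 and at least 228 elsewhere. Row 269 read 208 to 343 at number 4, and row 12018 read 446 to 718 at number 1. The slopes of these 7 rows ran from 0.74 to 1.18, with limma adjusted p from 6.95e-05 to 0.00274. The exception was row 15528, which read 570 and 733 at number 3 in the uninjected and Dkk1 arrays but 284 and 325 in the Gata5-GR and Gata4-GR+Dkk1 arrays, with a slope of 0.05 (SE 0.16, limma adjusted p = 0.879). It read 888 in Gata4-GR replicate 3.

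By class, the pattern was called in 32 of 32 rows low at number 1, 13 of 13 high at number 2, 10 of 10 high at number 1 and 8 of 8 low at number 2. It was called in 51 of 52 rows low at number 4, 25 of 29 low at number 3, 5 of 7 high at number 3 and 24 of 49 high at number 4. The last class held 25 of the 32 members not called with a slope above 0, row 634 among them. Measured as the plain difference of the extreme number from the other 3, in the direction of the class, 155 members were called, against 10.1% of all rows and 13.7% of the bright rows. The members so called follow by class, with bright rows called, members included, in brackets. Low at numbers 1 and 2 they were 27 of 32 (123 of 923) and 8 of 8 (91 of 767). Low at numbers 3 and 4 they were 23 of 29 (97 of 853) and 48 of 52 (333 of 1508). High at numbers 1 and 2 they were 9 of 10 (77 of 716) and 13 of 13 (67 of 583). High at numbers 3 and 4 they were 4 of 7 (67 of 916) and 23 of 49 (206 of 1479). For the pattern test bright rows were not counted by class. With a pseudocount of 1 the plain difference called 55 members, against 0.826% of all rows. The median log2 difference in the tested arrays was -1.32 for rows low at number 4, -1.31 low at number 3, -1.34 low at number 2 and -1.04 low at number 1. For the high classes it was 1.45 at number 2, 1.22 at number 1, 0.82 at number 3 and 0.51 at number 4.

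**Figure D3:**
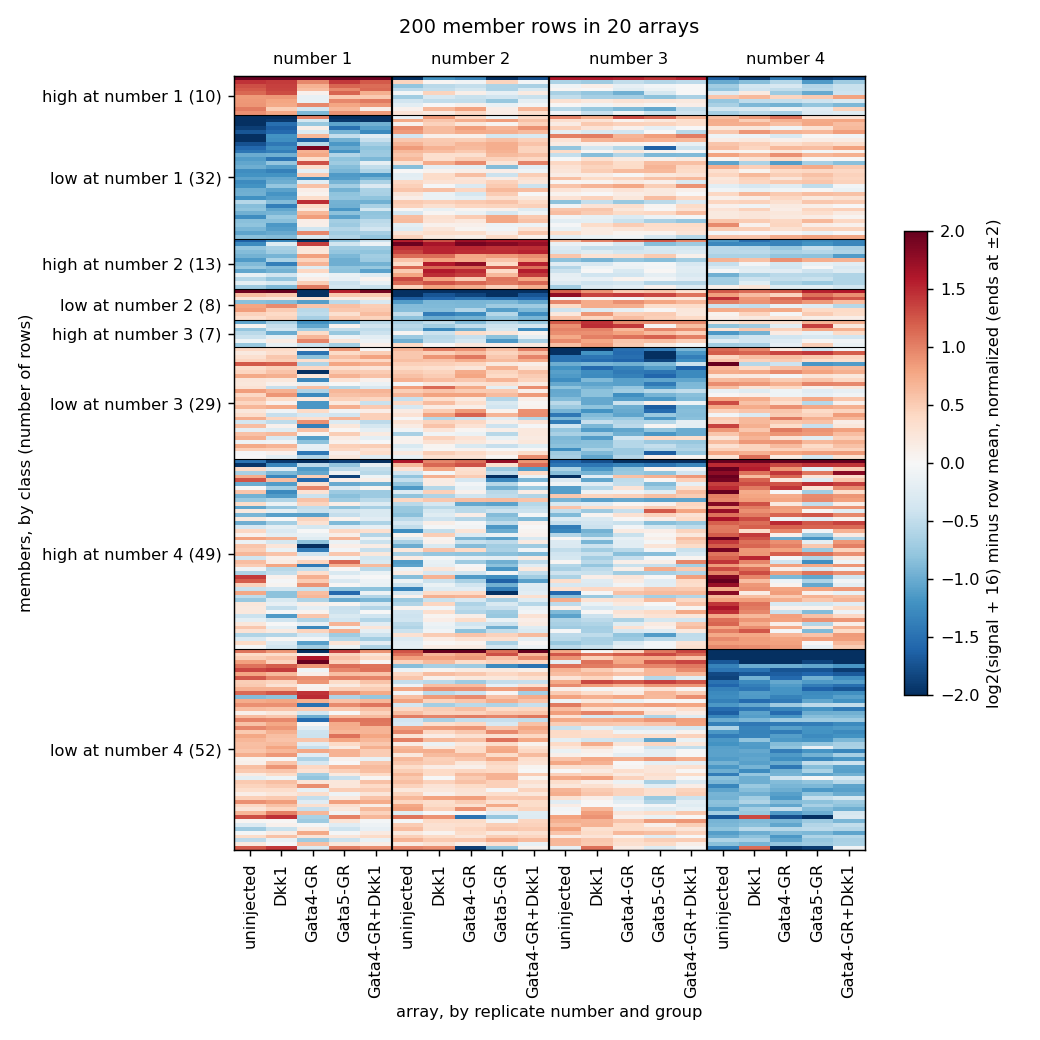
The 200 members (rows, by class) in 20 arrays (columns, by replicate number and then treatment), as the log2(signal + 16) level minus the mean of the row; colours end at 2 in either direction. Blocks of one colour run across the treatments of a number, broken at number 1 by the Gata4-GR array and at number 4 by rows that are high in the uninjected array alone or there and in the Dkk1 array.

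Low signals marked many members. In 74 members (37.0%) at least 1 number lay below the median signal of the array in both tested arrays, against 4.53% of the other bright rows. In 15 members 1 number was below the median and another above the upper quartile of the array, in both tested arrays each. Among the 7545 other bright rows there were 0. Members were chosen for a large spread between numbers and were dimmer, with a median log2 level of 7.74 against 8.09. These shares are therefore not like for like. The position of the widest gap between the 4 sorted averages parted 1 low number from the rest in 98 members, 1 high number in 54, and 2 from 2 in 48. The widest gap fell between the same numbers in the tested arrays in 137 members (68.5%), against 35.5% of the other bright rows. It did so in Gata5-GR and in Gata4-GR+Dkk1 arrays taken singly in 111 members (55.5%), against 15.7%. In 144 members both tested arrays of the extreme number lay beyond all 6 other tested arrays, in the direction of the class, against 27.1% of all rows and 37.5% of the other bright rows.

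The Gata4-GR arrays gave a further look at the same numbers. Over the 200 members, the deviations of each array were correlated with the deviations of each number in the uninjected and Dkk1 arrays. These correlations are across rows, which are not independent, and the 4 deviations of a row add up to 0, so correlations with the other numbers lean below 0. Gata4-GR replicates 2, 3 and 4 had correlations of 0.86, 0.88 and 0.85 with their own number, like the 8 tested arrays, which ran from 0.68 to 0.90. Gata4-GR replicate 1 had a correlation of -0.10 with number 1, and its correlations with numbers 2, 3 and 4 were 0.22, 0.17 and -0.20. Of its 200 members 43 lay closest to number 1, 57 to number 2, 66 to number 3 and 34 to number 4, whereas Gata5-GR replicate 1 had 122 closest to number 1. No number was a clear match for this array over the members.

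**Figure D4:**
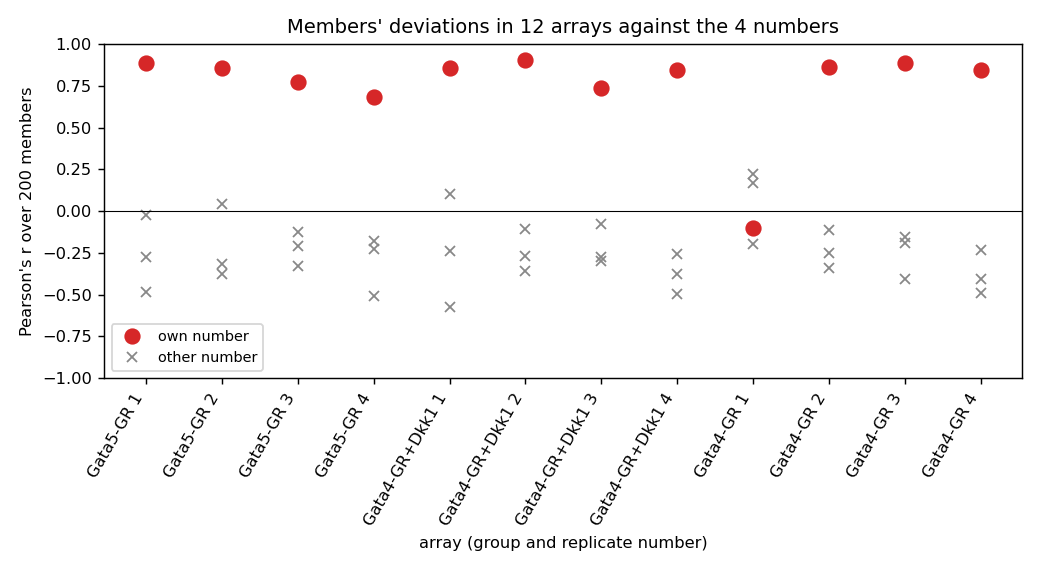
Pearson's r over the 200 members between the deviations of each of the 12 arrays that did not choose them and the deviations of each number in the uninjected and Dkk1 arrays. Filled circles mark an array's own number and crosses the other numbers. Of the 12 arrays 11 lie at 0.68 or above with their own number, and Gata4-GR replicate 1 lies at -0.10.

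In Gata4-GR replicate 1, 78 members (39.0%) were more than 2-fold from the mean of the other 4 arrays of number 1, 41 of them higher and 37 lower, and 13 more than 4-fold. Among the other bright rows 6.11% were as far. The next arrays by this measure were uninjected replicate 4, with 23 members, and Gata5-GR replicate 4, with 22. Among the other 11 arrays that did not choose the members, the members' deviations correlated at 0.75 to 0.92 in 10 pairs of the same number and at -0.54 to 0.11 in 45 pairs of different numbers. With deviations from the mean over all 20 arrays, choosing arrays included, the highest correlation of Gata4-GR replicate 1 with any array was 0.12. On that scale the same-number pairs of the other arrays ran from 0.63 to 0.93. With the Gata4-GR arrays added to the tested ones, 155 members were called, against 21.8% of all rows. Without Gata4-GR replicate 1 they were 170, against 30.7%. In the rows low at number 1 the median log2 difference of that number was -1.20 in Gata5-GR and -0.93 in Gata4-GR+Dkk1 arrays, and 0.07 in Gata4-GR arrays, whose number 1 is the array that stood apart. Over the 12 arrays that did not choose the members, 101 members had all arrays of the extreme number beyond all others, against 13.5% of all rows and 19.4% of the other bright rows. Without Gata4-GR replicate 1 it was 142, against 20.5% and 29.2%.

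The 25 rows high at number 4 whose slope was not called above 0 are described here without a test. They were picked by being high at number 4 in the uninjected and Dkk1 arrays and by missing the call in the Gata5-GR and Gata4-GR+Dkk1 arrays, so their levels in these 4 groups follow from the choice, and only the Gata4-GR arrays had no part in it. In the uninjected arrays number 4 was the highest in 25 of 25, by a median of 3.40-fold over the mean of the other numbers. In the Dkk1 arrays it was the highest in 23 of 25, by a median of 2.22-fold. In the Gata5-GR arrays it was the highest in 1 of 25, with a median ratio of 0.873, in the Gata4-GR+Dkk1 arrays in 9 (1.19) and in the Gata4-GR arrays in 13 (1.29). In 21 of these 25 rows uninjected replicate 4 held the highest level of all 20 arrays. The 24 called rows of this class were highest at number 4 in 22 to 24 rows of every group, by medians of 2.14-fold to 2.70-fold. These rows were picked by the same choice and by passing the call, so again only the Gata4-GR arrays had no part in it. In the Gata4-GR arrays alone, number 4 was the highest in 13 of the 25 and in 22 of the 24.

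**Figure D5:**
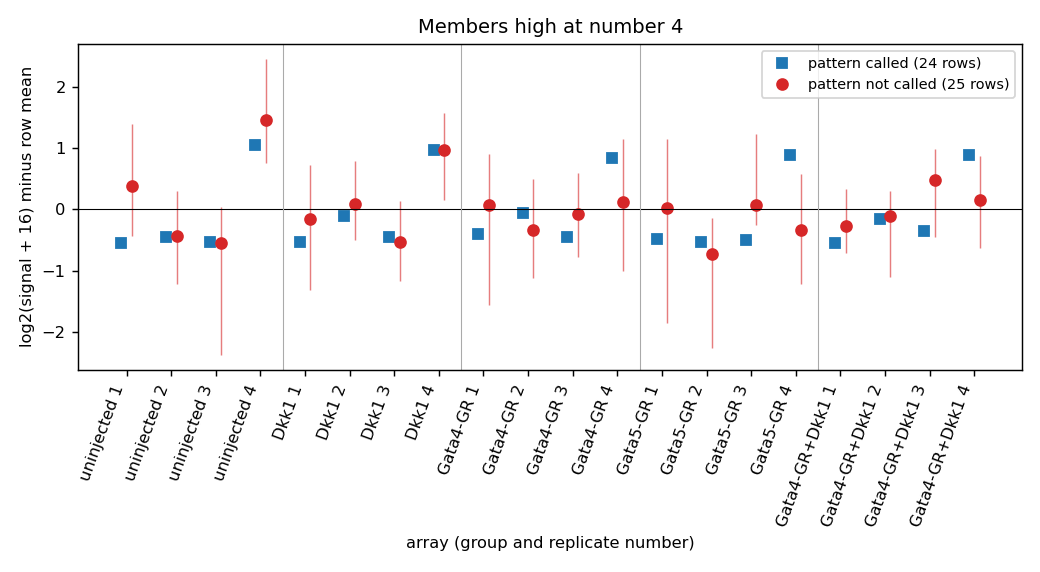
Median level of the rows high at number 4 in each array, as log2(signal + 16) minus the mean of the row, for the 24 rows whose pattern was called in the tested arrays and the 25 whose pattern was not; thin lines give the range of the 25. The 24 rows stand above 0 at number 4 in all 5 groups, and the 25 rows reach medians of 1.46 in uninjected replicate 4 and 0.97 in Dkk1 replicate 4. Both sets of rows were picked by their levels in all groups but Gata4-GR.

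The 4 members with the lowest slopes belonged to these 25. Row 634 read 3257 in uninjected replicate 4 and 1357 in Dkk1 replicate 4, the highest of each group, but 499 in Gata5-GR replicate 4, the lowest of its group. Its other signals were 517 to 1216 in uninjected, 660 to 984 in Dkk1, 526 to 1200 in Gata5-GR, 717 to 1211 in Gata4-GR+Dkk1 and 537 to 1261 in Gata4-GR arrays. In both tested groups and in the Gata4-GR arrays number 3 was the highest. Its slope was -0.50 (SE 0.08, limma adjusted p = 0.00748). Row 9472 (slope -0.35), row 406 (-0.30) and row 7965 (-0.29) were not called, with limma adjusted p of 0.207, 0.498 and 0.381. Uninjected replicate 4 read 1927, 2661 and 902.5 in these 3 rows, in each the highest of 20 arrays.

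Members that lay next to each other in the table were often alike. There were 12 pairs of neighbouring members, so that 24 members (12%) had a member beside them, against 3.05% of the other bright rows. Of these 12 pairs 8 were of the same class, and in 7 the profiles over the 12 arrays that did not choose them correlated above 0.9. Of 4992 neighbouring pairs of bright rows 1.80% did so. Members were chosen for a large spread between numbers, so these shares are not like for like. The closest pair was rows 5081 and 5082, with a correlation of 0.997, both high at number 2. Rows 7134 and 7135 went opposite ways, with a correlation of -0.91. By the listed identifiers, which were not used to name genes, 2 of the 12 pairs were of the same sequence cluster, with correlations of -0.24 and 0.48. Neighbouring pairs may share a target, which was not tested, and members are therefore not independent of each other.

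The members were also compared between treatments, over all 20 arrays, in 6 comparisons that share control arrays. In each comparison 0 of 200 members were called by limma at an adjusted p under 0.05. Members were chosen for a large spread between numbers, which this fit counts as error, so the choice itself made calls unlikely. The 0 calls of this fit therefore do not show that treatment left the members unchanged. Over all rows the share called was 0.0129% for Gata4-GR against uninjected, 0.0323% for Gata5-GR against uninjected, 0.0129% when Gata4-GR+Dkk1 was set against Dkk1, 0.0129% for Dkk1 against uninjected, 0.00646% for Gata4-GR+Dkk1 against Gata4-GR and 0% for Gata5-GR against Gata4-GR. At an unadjusted p under 0.05 the members counted 4, 3, 0, 1, 1 and 1 in the same order, against 4.62%, 2.70%, 2.20%, 2.58%, 3.01% and 3.48% of all rows. Without Gata4-GR replicate 1, 0 members were called in any of the 6, and the unadjusted counts of the 3 comparisons with Gata4-GR were 3 against uninjected, 1 for Gata4-GR+Dkk1 and 0 for Gata5-GR, beside 2.89%, 1.99% and 2.05% of all rows. The standard error of a group difference had a median of 0.484 on the log2 scale in the members, against 0.155 in the other bright rows, because the differences between numbers count as spread in that fit. With the replicate number as a block it was 0.205 in the members and 0.114 in the other rows, and again 0 members were called. The share of all rows called with the block was 0.0258% for Gata4-GR and 0.0452% for Gata5-GR against uninjected, 0.0258% for Gata4-GR+Dkk1 when set against Dkk1, and 0.0194% for Dkk1 against uninjected. It stayed at 0.00646% and 0% in the last 2 comparisons. Without Gata4-GR replicate 1 it was 0.0194% for Gata4-GR against uninjected and 0% in those 2. The lowest adjusted p of a member was 0.773 without the block and 0.0863 with it, both in row 657 for Gata5-GR against uninjected.

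With the block, 24 members had an unadjusted p under 0.05 for Gata5-GR against Gata4-GR, against 8.45% of all rows, and without Gata4-GR replicate 1 it was 10 members against 5.30%. For Gata4-GR+Dkk1 against Gata4-GR it was 11 members against 7.19%, and without that array 3 against 4.61%. For the contrasts without the Gata4-GR group, the counts were 11 for Gata5-GR against uninjected (4.48% of rows), 5 when Gata4-GR+Dkk1 was set against Dkk1 (3.67%) and 3 for Dkk1 against uninjected (4.88%). For Gata4-GR against uninjected the numbers did not pair the samples by the bound used. Only number 1, which rests on Gata4-GR replicate 1, fell below it, at 0.0599, while numbers 2 to 4 gave 0.384, 0.440 and 0.569. In this comparison the block gave 38 members against 10.3%, and 16 against 6.56% without Gata4-GR replicate 1.

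The median differences between treatments were larger in the members than in the other bright rows, as was their standard error. Members were chosen by their levels in the uninjected and Dkk1 arrays, so differences from these groups follow in part from the choice. Members and other bright rows are therefore not like for like here. The median absolute log2 difference was 0.267 against 0.114 for Gata4-GR against uninjected, and 0.269 against 0.090 without Gata4-GR replicate 1. It was 0.110 against 0.064 for Gata5-GR and 0.102 against 0.072 for Dkk1, each from uninjected caps, and 0.104 against 0.056 for Gata4-GR+Dkk1 from Dkk1 caps. From Gata4-GR caps it was 0.202 against 0.104 for Gata4-GR+Dkk1 and 0.198 against 0.108 for Gata5-GR, and without Gata4-GR replicate 1 it was 0.193 against 0.081 and 0.203 against 0.084. A log2 difference above 1 in size was seen in 7 members for Gata4-GR against uninjected (3.5% against 0.013% of the other bright rows). From uninjected caps it was 3 members for Gata5-GR (1.5% against 0.066%) and 0 for Dkk1 (0% against 0.040%). For Gata4-GR+Dkk1 from Dkk1 caps it was 1 (0.5% against 0.013%). From Gata4-GR caps it was 3 for Gata4-GR+Dkk1 (1.5% against 0.013%) and 5 for Gata5-GR (2.5% against 0.013%). Without Gata4-GR replicate 1 it was again 7 members for Gata4-GR against uninjected, beside 2 of the other bright rows. In the other comparisons it was then 0 to 3 members, beside 1 to 5 of the other bright rows. The SD between numbers in the tested arrays had a median of 0.703 in the members.

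The largest difference of Gata4-GR from uninjected caps was in row 13228, with a log2 of -1.43 (SE 1.38, limma adjusted p = 0.971), and it was -0.80 without Gata4-GR replicate 1, the array that left its number there. The same row had the largest difference of Gata4-GR+Dkk1 from Gata4-GR caps, 1.30, and 0.66 without that array. Row 3307 had the largest of Gata5-GR from Gata4-GR caps, -1.47 (SE 0.74, limma adjusted p of 1.00), with Gata4-GR signals of 792, 635, 874 and 1278 against 97.4, 91.2, 823 and 603 in Gata5-GR arrays 1 to 4. Without Gata4-GR replicate 1 the difference in row 3307 was -1.53. The largest of Gata5-GR from uninjected caps was in row 657, of -1.63 (SE 0.44, limma adjusted p = 0.773). Row 657 read 773, 232, 392 and 1858 in uninjected arrays 1 to 4 and 176, 83.5, 239 and 184 in Gata5-GR arrays, lower at every number. It read 203, 177, 218.5 and 328 in Dkk1 arrays, 458, 158, 387 and 315 in Gata4-GR arrays and 252, 101.2, 293.5 and 279 in Gata4-GR+Dkk1 arrays, so uninjected replicates 1 and 4 were its highest of all.

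Rows 8638 and 8639, neighbours that correlated at 0.958 over 12 arrays, gave the largest differences where Dkk1 caps were compared. Row 8638 was low at number 4 in uninjected (175), Gata5-GR (75.9) and Gata4-GR (162.5) arrays, although in the last group number 2 was lower, at 152. In Dkk1 replicate 4 it read 957, among 812 to 1053 in the other Dkk1 arrays. Gata4-GR+Dkk1 replicate 4 read 416, above replicates 2 and 3 of its group at 334 and 389. The log2 difference of Gata4-GR+Dkk1 from Dkk1 caps was -1.11 (SE 0.63, limma adjusted p of 1.00). Row 8639 had the largest difference of Dkk1 from uninjected caps, 0.98 (SE 0.60, limma adjusted p of 1.00), and read 199 in uninjected replicate 4 and 746.5 in Dkk1 replicate 4.

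Without the block 6 rows were called in at least 1 comparison of treatments, and with it 11, which include those 6. Of these rows 0 were among the 200 members, where the choice made calls without the block unlikely. Of the 6, by SD between numbers in the uninjected and Dkk1 arrays, row 5066 ranked 378 (SD 0.506) and row 2234 ranked 907 (SD 0.368). The other 4, rows 821, 3106, 11897 and 15572, were dimmer than the median row and could not be chosen.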

How the data were processed

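Signals of 20 single-colour Affymetrix arrays, 4 per group, were used as deposited by the authors: linear intensity values, 1 per row and array, whose normalization the labels leave unstated. Depth does not apply to arrays, and the number of arrays limits the precision. By identifier, 120 listed controls were removed; normalizing them too gave the same 200 members. A pseudocount of 16 was added, log2 taken and the 20 arrays quantile normalized. Groups and replicate numbers came from the sample titles. Models were fitted with limma 3.58.1 (lmFit, eBayes) in R 4.3.3 over 15491 rows, two-sided, with Benjamini-Hochberg adjustment. The pattern fit left 3 residual degrees of freedom. The code was tested on simulated data. The members, classes and tests were chosen with earlier results of these data known. Rows named are the 2 members of each class with the largest SD, the 4 lowest slopes, and the 3 rows on either side of the list's edge; rows 657, 3307, 8638 and 8639 were added, after their values were seen, because each has the largest difference among members in 1 comparison of treatments. Replicate numbers were taken to pair samples where all 4 same-number correlations of deviations passed 0.1, which held in 5 of 6 comparisons (lowest 0.111). Gata4-GR+Dkk1 against Gata4-GR passed with 0.111 at number 1 and Gata5-GR against Gata4-GR with 0.135, each resting on Gata4-GR replicate 1. Alternatives were other pseudocounts, median centring, list sizes, exchanged groups, a replicate block and leaving out arrays. No sequences were used here.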

Additional observations from a re-analysis of the deposited data

Results flagged for a closer look

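In 12 of 130 groups of 4 arrays, from 26 named rows, 1 array stood far from the other 3 by Dixon's test, where chance gives about 1 in 20. The signals printed here are those deposited, before normalization, and by them not every array listed stands far apart. The flags in uninjected or Dkk1 arrays follow in part from how members were chosen. Rows 634, 406 and 7965 were named for their low slopes in the Gata5-GR and Gata4-GR+Dkk1 arrays. Flags of these rows in those arrays follow in part from that choice, so 1 in 20 is no fair measure for them. The Gata4-GR+Dkk1 flags of rows 10486 and 7134 and the Gata5-GR flag of row 6358 fall at the number of the row's class. They repeat the pattern described above, and 1 in 20 is no fair measure for them either. In row 15528 Dkk1 replicate 3 read 733.2, against 118.3 to 140.4. In row 10486 replicate 1 read 4.9 in Dkk1 caps, against 170.9 to 200.6, and 4.8 in Gata4-GR+Dkk1 caps, against 133.6 to 156.3. In row 7134 replicate 1 read 143.5 in uninjected caps, against 741.3 to 1149.0, then 94.7 in Dkk1 caps, against 580.7 to 706.3, and 122.9 in Gata4-GR+Dkk1 caps, against 546.1 to 978.2. In row 13228 uninjected replicate 2 read 2.3, against 350.7 to 641.9. In row 6358 replicate 4 read 13.2 in uninjected caps, against 341.9 to 451.6, and 5.9 in Gata5-GR caps, against 377.8 to 435.8. In Gata4-GR+Dkk1 replicate 3, row 634 read 1210.9, against 717.0 to 857.0, and row 406 read 727.8, against 408.0 to 546.7. In row 7965 Gata4-GR replicate 1 read 219.4, against 267.2 to 370.8.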

How the results depend on the processing

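The pattern fit had 3 residual degrees of freedom, and counts of calls moved with the settings, in members and in all rows; the cause was not tested. With a pseudocount of 1 and the same members, the test of any difference between numbers called 58 members (0.859% of all rows) and that of the extreme number 55 (0.826%), while the pattern test called 152 (11.6%). At an adjusted p under 0.01 any difference was called in 107 members (2.01% of all rows). With the groups exchanged, so that the tested arrays chose the members, the median slope was 0.953 and 147 members were shared; with the Gata4-GR arrays added it was 0.774. Leaving out 1 tested array, the pattern test called 151 to 165 members (9.60% to 15.6% of all rows), any difference 119 to 155 (2.74% to 5.30%), the extreme number 105 to 139 (2.60% to 5.78%), and the median slope was 0.853 to 0.872. The lowest pattern and extreme-number counts were without Gata5-GR replicate 4, and the lowest count of any difference without Gata4-GR+Dkk1 replicate 4. Settings chosen after seeing the data left uninjected replicate 4 or 3 out of the choice of members. The pattern test then called 171 and 163 members (19.7% and 21.1% of all rows). Any difference was called in 165 and 162 (11.1% and 11.1%) and the extreme number in 157 and 151 (10.1% and 10.2%). The median slopes were 0.849 and 0.852. A further setting of this kind added the Gata4-GR arrays without replicate 1. It called 170, 174 and 164 members in the same order of tests, against 30.7%, 24.7% and 20.5% of all rows, with a median slope of 0.857. Row 10708 (slope 0.47) was not called at a pseudocount of 1, and the other 91 of 92 slopes of named members kept their side. In the comparisons of treatments 84 alternatives, the replicate block included, called 0 members. Apart from the block, these count as error the spread between numbers for which members were chosen. For Gata4-GR against uninjected the numbers did not pair the samples by the bound, through number 1 alone (correlation 0.0599). With the replicate block 38 members had an unadjusted p under 0.05 in this comparison, against 10.3% of all rows. Without Gata4-GR replicate 1 they were 16, against 6.56%.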
